A study of Mus musculus with 2 samples.

Results

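Egr1, Zfp36 and Ier2 are immediate early genes, which cells transcribe within minutes of a stimulus such as a growth factor, without first making new protein. They are 3 of the 11484 genes with a named probe in the table, and were found by the gene symbol of the array's annotation. Egr1 and Zfp36 were each read by 1 probe and Ier2 by 2, which makes 4 probes. The members were chosen by their measured difference between the samples described here, so their own differences are a description with no test. The 3 genes did not go the same way. Egr1 and Zfp36 were lower in the stem cells generated with a small molecule, and Ier2 was slightly higher.

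Gene expression was measured on a 1-colour oligonucleotide array in 2 mouse samples labelled as embryo in stage and C57/ICR in strain. One sample was parental cells at passage 1, grown in FBS medium, that is with fetal bovine serum. The other, called stem cells here, had been generated with a small molecule and was at passage 5 in ES medium, the medium of embryonic stem cells. The labels name no cell type for the parental cells, no compound and no components of the ES medium. Passage, medium and treatment differed together between the samples and cannot be told apart. The design text names 3 replicates per sample, but 1 column per sample was analysed here, so no test between groups was possible and precision is limited by the number of arrays.

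Immediate early transcription runs largely through RAS and the mitogen-activated protein kinases. The ERK branch of these phosphorylates ternary complex factors such as ELK1 that sit with the serum response factor SRF on CArG boxes, and serum is the classical stimulus of this response. EGR1 is a zinc finger transcription factor that binds GC-rich sites and induces its own corepressor NAB2. NAB1 is another corepressor of EGR1. ZFP36, also called tristetraprolin, binds AU-rich elements (AREs) in messenger RNAs and brings them to the CCR4-NOT deadenylase. IER2 is a small nuclear protein induced in the same response.

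Egr1 had an intensity of 17504 in the parental sample and of 194 in the stem cells. The first value lay far above the 25th percentile of its sample, taken as the floor for a measurable signal (93.8 for the parental cells, 93.4 for the stem cells). The second lay above it as well, though under the median of 305 in its sample. By this floor the difference of -6.50 on the log2 scale, or 90.4-fold lower, was measured on both sides. Among the 9766 genes that exceeded the floor in 1 or both samples, Egr1 had the 25th lowest measured difference. This rank used values under the floor as measured, so some genes ahead of Egr1 may hold only a bound. In such bulk samples, fewer cells of a type and less RNA per cell cannot be told apart.

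Zfp36 had an intensity of 887 in parental cells and 86.0 in stem cells. The lower value was just under the floor, and the next values of members, 154 for an Ier2 probe in the parental cells and 194 for Egr1 in the stem cells, were above it. The measured log2 difference was -3.37, and against the floor Zfp36 was at least 9.49-fold lower.

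Ier2 was above the floor with both probes in both samples. The first probe was at 6408 in the parental cells and 13376 in the stem cells, 2.09-fold higher. The second was at 154 and 206, 1.34-fold higher, and lay under the median of each sample (304 and 305). Both probes thus pointed the same way, and only the first passed 2-fold. Averaged on the log2 scale, Ier2 was at 993 and 1658, a log2 difference of 0.74 or 1.67-fold. By a rule of 2-fold, 2 of the 3 members were thus lower and none was higher. Among the 9766 genes 22.6% were lower and 22.1% higher by that rule, from which nothing is read here because the members were chosen on this difference.

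**Figure D1:**
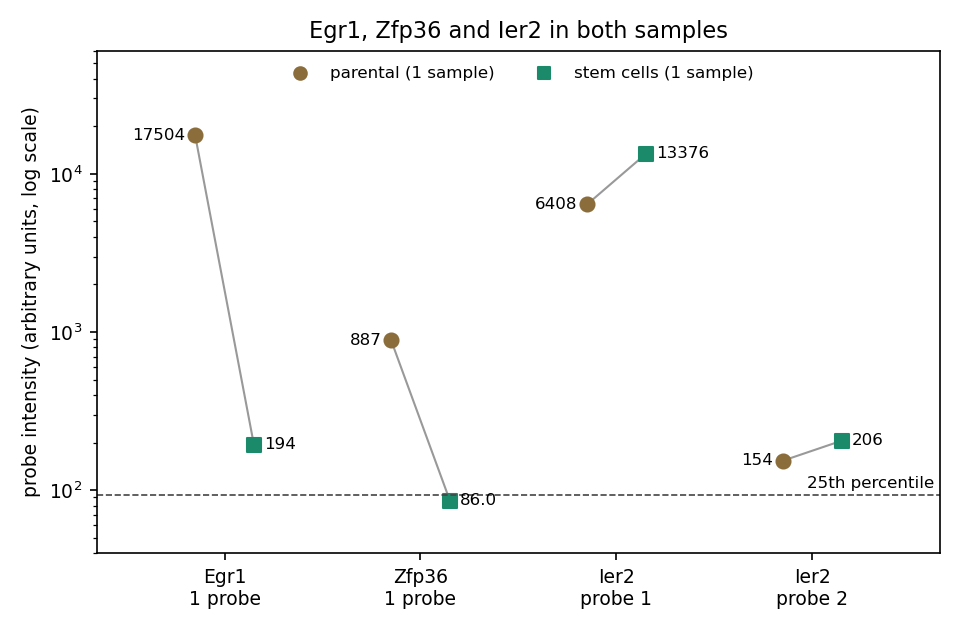
Intensity of each probe of Egr1, Zfp36 and Ier2 (log axis, arbitrary units) in the parental sample (circles) and the stem cell sample (squares), 1 sample each, with the floor as a dashed line at the geometric mean of both samples' 25th percentiles. The lines fall from 17504 to 194 for Egr1 and from 887 to 86.0 for Zfp36, and they climb for both Ier2 probes.

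The only error these data give is the disagreement between probes of 1 gene. Over 612 genes for which 2 probes gave a signal, single probes had log2 differences with a standard deviation of 1.05 around their gene. That of a mean of 2 probes would be 0.74, about as large as the difference of 0.74 of Ier2. The gap of 0.64 between the 2 Ier2 probes was below the median gap of 0.82, and 40.7% of the 612 pairs had a smaller one. This spread covers probes on the same arrays and no difference between cultures.

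The samples also differed in cell type markers. The 5 measured fibroblast markers of 10 listed had a summed intensity of 142266 in the parental and 612 in the stem cells, where Eln and Snai2 were under the floor. Thy1 was at 40943 and 117 and Cav1 at 36558 and 179.7. The 9 measured ES cell markers had 909 and 117225, with Pou5f1, Nanog, Esrrb, Zfp42, Fgf4 and Fbxo15 under the floor in the parental cells. In the stem cells Nanog was barely above it (77.7 and 94.7). The 6 measured macrophage markers had 6447 and 985, with C1qa and Aif1 under the floor in the stem cells. Within this list Fcer1g was at 1894 and 206 and Spi1 at 224 and 268. The 3 measured neural progenitor markers differed among themselves: Zic1 was at 5213 and 68.0, at least 55.8-fold lower, Nes at 1082 and 696, and Sox1 at 44.8 and 262, at least 2.79-fold higher. Their sums of 6340 and 1026 were mostly Zic1. The part of these markers in the differences of the immediate early genes was not tested.

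Of Egr1, Zfp36 and Ier2, only Zfp36 had a promoter in the RefSeq table used here. The 250 bases before the Zfp36 start are therefore shown alone. These bases hold sites for factors of this response side by side. The sequence is from RefSeq (GRCm38.p6), chr7:28379229-28379478 on the minus strand, read 5′ to 3′. The capitals mark, in order, an EGR site (GCGNGGGCG, bases -105 to -97 from the start), an ETS site (CCGGAAG, -92 to -86), the type that ternary complex factors bind, and a CArG box (-58 to -49).
Zfp36: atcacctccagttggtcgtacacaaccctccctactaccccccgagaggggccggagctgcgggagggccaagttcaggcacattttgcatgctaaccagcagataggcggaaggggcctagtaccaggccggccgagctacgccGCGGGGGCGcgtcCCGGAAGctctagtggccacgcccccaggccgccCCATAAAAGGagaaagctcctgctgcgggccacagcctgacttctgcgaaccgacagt

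None of these 3 matches overlapped another. Over the same window of all 32851 RefSeq promoters, with both strands searched, an EGR site was present in 4.70%, an ETS site in 6.91% and a CArG box in 1.47%. Among immediate early genes measured on the array, 27 had promoters in the RefSeq table, with 40 windows in all since some have several starts. Zfp36 was the only one of them with a CArG box in this window. Egr1 and Ier2 were not among the 27, so their promoters were not searched. An EGR site stood in 9 of 27 (33.3%), against 5.33% of all 27025 genes in the table. The windows of these 27 genes were also richer in G and C, with a median of 64% against 52.4% for all windows. The plain GC box (GGGCGG), which can overlap an EGR site, stood in 24 of 27 (88.9%) against 35.4% of all genes. A match describes these letters and does not show binding.

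The EGR sites of the other 8 genes are shown with up to 10 bases on each side, to set them beside that of Zfp36. The site is in capitals, and reads CGCC at its left end where it lies on the opposite strand.
Dusp2, chr2:127336051-127336079, plus strand: acgtgaagccGCGGGGGCGggcaccggcg
Fosl2, chr5:32136383-32136411, plus strand: ccggctgcgcGCGGGGGCGgaagggcgcg
Gadd45b, chr10:80930051-80930079, plus strand: ccgctcgcagCGCCCGCGCgctcactccg
Klf2, chr8:72318853-72318881, plus strand: gggcccggccGCGGGGGCGgggcttgagg
Maff, chr15:79347422-79347450, plus strand: cctcactcggGCGTGGGCGgggtctcggc
Nr4a1, chr15:101266776-101266804, plus strand: gcgtcagtggCGCCCCCGCccctctccat
Nr4a2, chr2:57124059-57124087, minus strand: cgcggggtgcGCGCGGGCGgcgacaatga
Socs3, chr11:117969529-117969557, minus strand: cccatcgcgaCGCCCCCGCctctgccaga

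The genes with an EGR site did not all differ. Of the 9, Zfp36, Maff, Nr4a1 and Nr4a2 were 2-fold or more lower, none was higher, Fosl2, Gadd45b, Klf2 and Socs3 differed by less, and Dusp2 was under the floor in both samples. Of all genes 22.6% were lower and 22.1% higher. Nr4a1, a nuclear receptor gene, was at 2577 and 1236 (2.08-fold lower). Maff, which encodes a small MAF factor, was at 188 and 79.2 (at least 2.01-fold lower). For the nuclear receptor gene Nr4a2, at 102 and 40.9, the bound against the floor was 1.09-fold. The calls of Maff and Nr4a2 were lost with an offset of 50. Within 2-fold lay Klf2, a zinc finger factor gene (978 and 1691), and Gadd45b, a stress-induced gene (799 and 1081).

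Both corepressor genes of EGR1 were lower in the stem cells too. Nab2 was at 3239 in the parental cells and 76.7, under the floor, in the stem cells, at least 34.7-fold lower. Nab1 was read by 2 probes. The first went from 4143 to 235, 17.7-fold lower, and the second was under the floor in both samples (44.8 and 29.6), and on the mean of both Nab1 was at least 4.61-fold lower. Egr3 (40.6 and 41.3) and Egr4 (84.4 and 64.4) were under the floor in both samples. Egr2 and Wt1 were not analysed here.

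Genes listed as EGR1 targets, a list that includes Nab1 and Nab2 again, went both ways. The counts and median below are thus not independent of the values of these corepressor genes given above. Of the 8 measured of 14 listed, 5 were 2-fold or more lower and 2 higher, with a median log2 difference of -2.36 (-2.04 with dim values raised to the floor), beside 0.07 over all 11484 genes. Of all genes, 22.6% were lower and 22.1% higher. Besides Nab1 and Nab2, the lower ones were Vegfa, the angiogenic growth factor, from 15683 to 2426 (6.46-fold), Tgfb1 from 345 to 67.2 (at least 3.69-fold) and Igf2, a fetal growth factor, from 47590 to 491 (96.9-fold). Pdgfa, a ligand of the PDGF receptor, was 2.85-fold higher (2870 and 8177) and the adhesion gene Icam1 6.09-fold higher (292 and 1779). Pdgfb was at 142 and 136.

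Of the Zfp36 family, Zfp36l1, which encodes a second ARE-binding protein, was at 18898 and 4866. It was thus 3.88-fold lower and, unlike Zfp36, remained far above the floor. Zfp36l3 was under the floor in both samples (40.6 and 49.7), and Zfp36l2 was not analysed here.

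Messenger RNAs known to be destabilised by ZFP36 did not share a direction. Of 9 measured of 21 listed, 2 were 2-fold or more higher, 3 were lower and 2 were under the floor in both, with a median log2 difference of 0.07, or -0.01 with dim values raised to the floor. Over all 11484 genes these medians were the same. Those of the list were the values of Il10, which was under the floor in both samples, so nothing is read from the match. Among the 9766 genes above the floor in 1 or both samples the medians were 0.12 and 0.10. Of these genes 22.1% were higher and 22.6% lower. Pim1, a kinase gene, was 14.2-fold higher (660 and 9358), and Il1b, which encodes interleukin 1 beta, 2.18-fold higher (188 and 411). The higher call of Il1b was lost after intensity-dependent centring and with an offset of 50. Ccnd1, which encodes cyclin D1, was 4.68-fold lower (2594 and 555), beside Vegfa and Ier3. Tnf, the best known ZFP36 target, was under the floor in both samples (55.9 and 38.8), as was Il10 (35.6 and 37.4). Il3, another cytokine gene, was at 85.2 and 105.

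The machinery of messenger RNA decay that ZFP36 recruits was listed with 24 genes. Of the 18 measured, 13 were within 2-fold, 3 were higher and 2 lower (1 with dim values raised to the floor), beside 22.1% and 22.6% of all genes. Cnot10, a subunit of the CCR4-NOT complex, was 3.70-fold higher (137 and 506) and Pabpc1, the poly(A)-binding protein, 2.38-fold higher (5784 and 13787). Cnot7, a catalytic deadenylase of that complex, was 2.99-fold lower (1115 and 373). The decapping enzyme gene Dcp2 was read by 2 probes that disagreed: one went from 1074 to 6069, the other from 138 to 127. Cnot2, within 2-fold on its mean, also had probes that disagreed, at 6991 and 9764 and at 2089 and 901. Cnot1 was within 2-fold on its mean as well. Its brighter probe was 2.01-fold higher (8014 and 16085), and its dimmer probe was at 88.2, under the floor, and 118. Elavl1, which encodes the ARE-stabilising protein HuR, was at 14081 and 19302, a 1.37-fold difference. Tob2, an adaptor of the deadenylase, was at 103 and, under the floor, at 33.7. Ywhab, a 14-3-3 protein gene, was at 17243 and 11086.

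Beside Ier2, the family member Ier3, a regulator of cell survival, went the other way, from 825 to 332 (2.49-fold lower). Ier5 and Ier5l were not analysed here.

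The wider response was measured in part. Of 55 immediate early genes listed, 37 were measured and 18 were not analysed here, among them Fos, Fosb, Atf3, Myc, Egr2 and Ptgs2. Without Egr1, Zfp36 and Ier2, 14 of the 34 measured genes were 2-fold or more lower, 6 were higher, 11 differed by less and 3 were under the floor in both samples. Of the 31 that exceeded it in 1 or both, 45.2% were thus lower and 19.4% higher, beside 22.6% and 22.1% of all genes. With dim values raised to the floor, 13 were lower and 5 higher, beside 20.8% and 20.5% of all genes. The median log2 difference of the 34 was -0.33 (-0.09 with values set to the floor), beside 0.07 (-0.01) over all genes. These lists were put together with earlier results of these data known, so the counts are a description.

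Among the lower immediate early genes, Ccn1, a secreted matricellular protein, was 20.8-fold lower (3610 and 174). Plk2, a polo-like kinase gene, was 14.3-fold lower (8292 and 580.5) and Klf6, a zinc finger factor gene, 13.7-fold lower (13166 and 964). Phlda1 was 5.71-fold lower (2692 and 471), Rhob, a small GTPase gene, 3.93-fold lower (4291 and 1093) and Bhlhe40, a transcriptional repressor gene, 2.81-fold lower (5051 and 1795). Tnfaip3, which encodes the NF-kappa B inhibitor A20, was at least 4.13-fold lower (386 and 65.2).

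The higher ones were fewer. Pim1 stood apart at 14.2-fold. The others were close to 2-fold: Mcl1, a survival factor of the BCL2 family, 2.38-fold higher (17280 and 41124), Nfkbia, which encodes another NF-kappa B inhibitor, 2.34-fold (863 and 2023), and Klf10, a zinc finger factor gene, 2.11-fold (1316 and 2771). After intensity-dependent centring Mcl1, Klf10 and Jund no longer reached 2-fold, and after centring the classes of probes apart Klf10 and Jund did not. Sik1 went from 46.9 to 111, and against the floor it was at least 1.18-fold higher. Socs3, a feedback inhibitor of cytokine signals, was at 2779 and 2670.2, and Sgk1, a serum- and glucocorticoid-induced kinase gene, at 2229 and 2743.

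**Figure D2:**
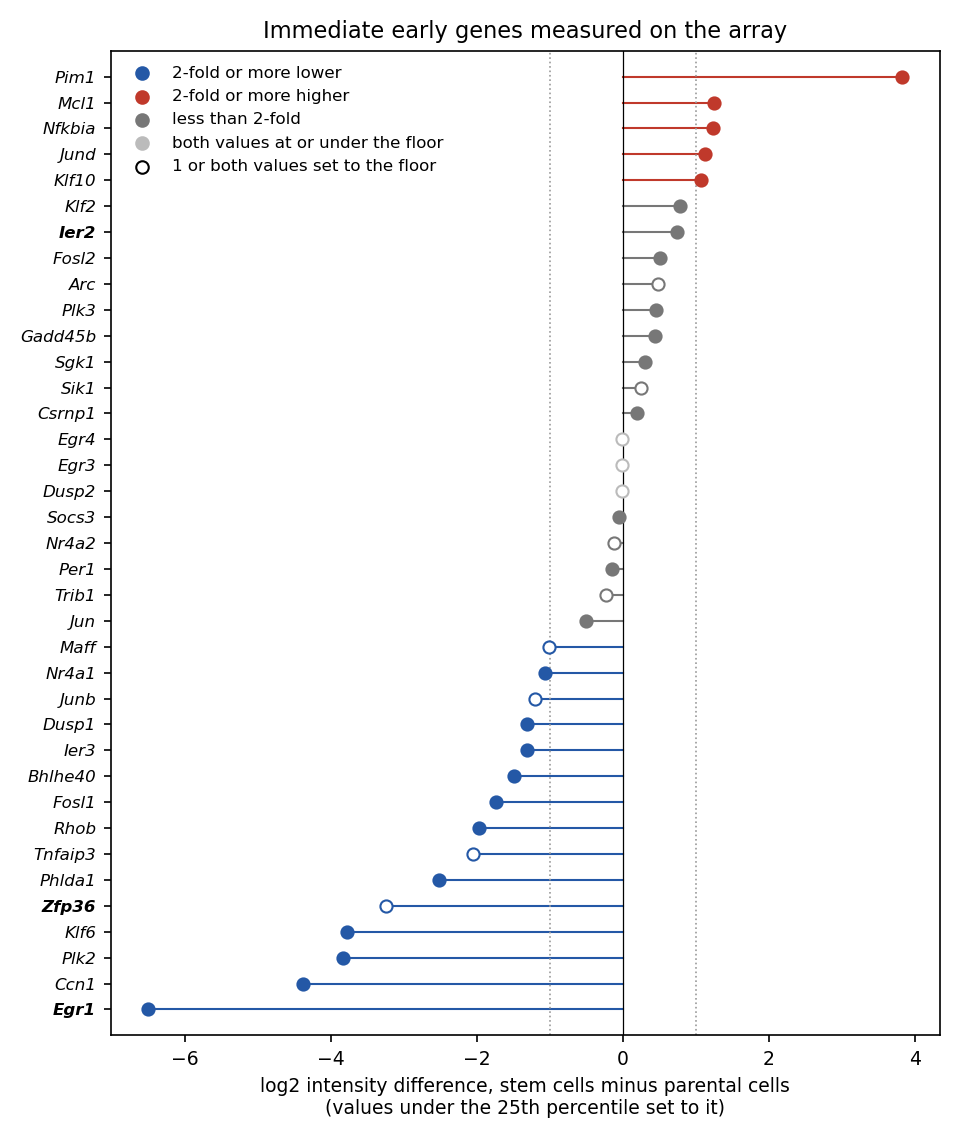
Log2 difference in intensity (stem cells minus parental cells) of the 37 immediate early genes measured, with values under the 25th percentile set to it. Dotted lines mark 2-fold, colours the genes past it (5 higher and 15 lower), and open circles the genes with a value at the floor; Egr1 and Zfp36 lie among the lower genes and Ier2 within 2-fold.

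Subunits of AP-1, the dimeric factor of the same response, were divided. Of 7 measured of 11 listed, 3 were lower and 1 higher, beside 22.6% and 22.1% of all genes. Junb was read by 2 probes: one went from 2261 to 247, 9.16-fold lower, and the other was under the floor in both samples (20.3 and 30.8). Fosl1, which encodes FRA1, was 3.34-fold lower (940 and 282), and Jdp2, a repressor of AP-1, 10.3-fold lower (14300 and 1389). Jund, by contrast, was 2.18-fold higher (3983 and 8687). Jun (736 and 518), Fosl2 (390 and 553) and Batf3 (209 and 224) differed by less than 2-fold.

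**Figure D3:**
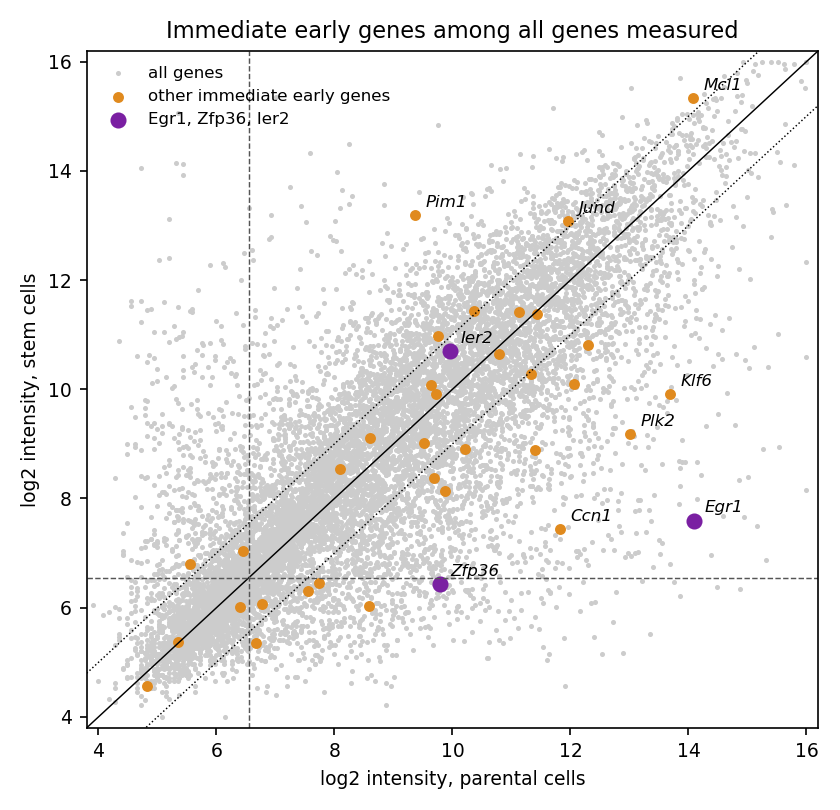
Log2 intensity of every gene in the parental cells (x axis) against the stem cells (y axis), with the 37 immediate early genes in colour. The solid line marks equal values, dotted lines 2-fold and dashed lines the floor of each sample; Egr1 lies at a log2 difference of -6.50, Zfp36 just under the floor of the stem cells and Ier2 at 0.74.

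Upstream of these genes, no measured DNA-binding factor reached 2-fold by the measured values. Srf was at 3732 and 2270.2 (1.64-fold lower) and Atf1, a CREB relative, at 3340 and 5055 (1.51-fold higher). The ternary complex factor gene Elk4 was at 133 and, under the floor, at 68.0. It was thus at least 1.43-fold lower, a bound that does not exclude 2-fold. Elk4 passed 2-fold when the classes of probes were centred apart. Elk1, Elk3, Mrtfa, Mrtfb and Creb1 were not analysed here.

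Of 12 measured genes of the ERK and p38 pathways, 5 were lower, 1 was higher and 6 were within 2-fold. They encode kinases, except Nras, a small GTPase gene. Among all genes 22.6% were lower and 22.1% higher. Braf, which activates MEK, was 9.26-fold lower (3269 and 353). Mapkapk2, the p38-dependent kinase that phosphorylates ZFP36, was 4.11-fold lower (1791 and 435), and Map2k3, a p38 activator, 2.87-fold lower (4534 and 1577). The second p38 activator, Map2k6, was 4.75-fold higher (371 and 1761). Araf was at 163 and 233, Map2k2 at 401 and 524, Nras at 1213 and 1223 and Mapk14, the p38 alpha gene, at 1299 and 1484.

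Feedback inhibitors of ERK and of other mitogen-activated protein kinases were listed together, and 8 were measured. Of these, 1 was lower, 1 higher, 4 within 2-fold and 2 under the floor in both. This stands beside 22.6% lower and 22.1% higher among all genes. Dusp1, an immediate early phosphatase of p38, JNK and ERK, was 2.48-fold lower (1191 and 481). Dusp9, another phosphatase of this family, was 9.23-fold higher (232.5 and 2147). Dusp14 was at 273 and 157 and Dusp16 at 570.1 and 779.7, Spry4 at 461 and 365 and Spred2 at 208 and 251.

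**Figure D4:**
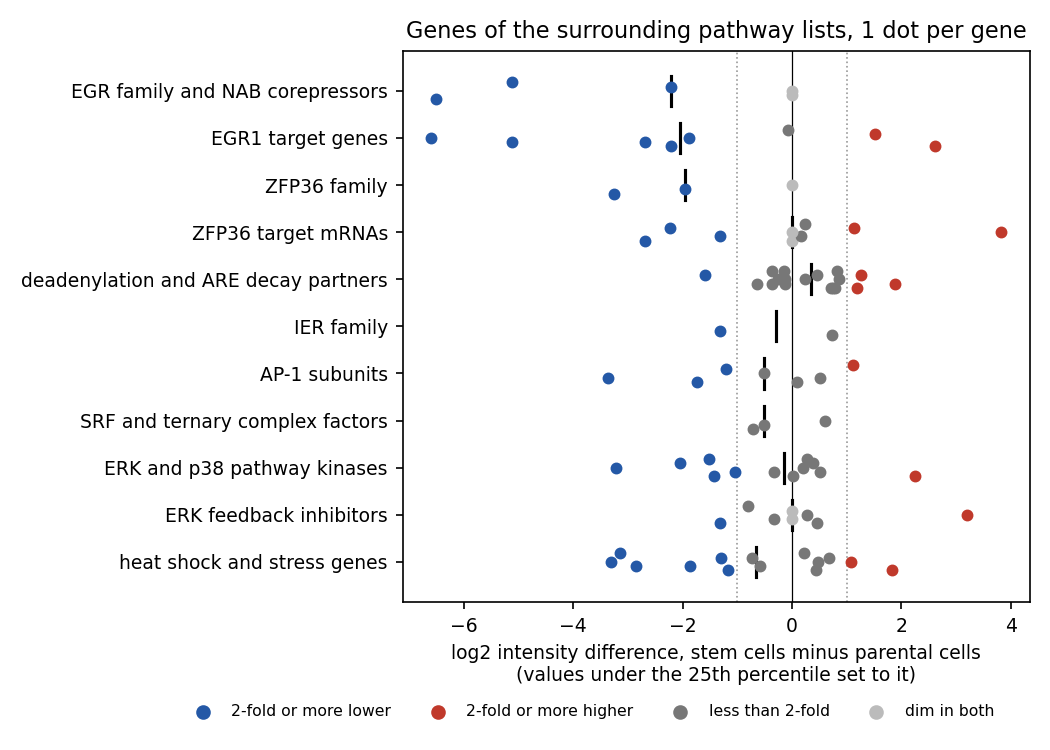
Log2 difference in intensity (stem cells minus parental cells, values under the 25th percentile set to it) of each measured gene of the lists around Egr1, Zfp36 and Ier2, 1 dot per gene, with a black bar at the list's median. The EGR and NAB list has a median of -2.20 and the decay partners 0.34.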

How the data were processed

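RNA was amplified, coupled to Cy5 and put on a 1-colour Phalanx OneArray v2 for the whole mouse genome, per the labels' protocols. The deposited values are probe intensities on a linear scale. How the authors scanned, corrected, normalised and filtered them is not stated in the sources used here. Median intensities were nearly equal (304 and 305), so a difference in total signal would not show.

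Of 13989 probes, 12380 had 1 gene symbol, 0 several and 1609 none. Of the named, 12364 were updated by Entrez identifier with a RefSeq table (GRCm38.p6) and 16 kept the platform's name. Probes were averaged per gene in log2. A value at or under the 25th percentile of its sample is dim. With 1 dim value the fold is a bound against the floor, and with both dim there is none. Calls of 2-fold used measured values. The shares given for all genes are of the 9766 genes above the floor in 1 or both samples. With 1 sample per group no test was made.

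Members and lists were chosen with earlier results of these data known. Named were the members, their families, AP-1, the 3 largest differences each way of the other lists, and the 3 genes nearest each member in both log2 values. Other genes (such as Nfkbia, Phlda1, Rhob, Bhlhe40, Tnfaip3, Socs3, Sgk1, Nras, Mapk14, Elavl1 and Hmox1), and probes that disagree, were picked after their values were seen. Alternatives were centring by median, quantiles or lowess (span 0.3), the brightest probe, an offset of 50, floors at the 10th percentile and the median, a 4-fold rule, values set to the floor, no filter, and probes in place of genes. Centring 3 classes of probe identifiers apart, and each Ier2 probe apart, were added after seeing the data. The code (Python 3.11.15, pandas 2.3.3, statsmodels 0.14.6) was tested on simulated data.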

Additional observations from a re-analysis of the deposited data

How the results depend on the processing

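Egr1 and Zfp36 kept their direction under every alternative tried, which says little for differences of this size. No centring moved any gene by more than 0.32 on the log2 scale. The bounded log2 difference of Egr1 ran from -6.67 (lowess) to -5.84 (floor at the median). The latter is only a bound, because the value of Egr1 in the stem cells was under that floor. The bounded difference of Zfp36 ran from -3.37 to -2.71, except with the floor at the median. There only a bound of -1.54 was left because fewer values lie above such a floor. Ier2 ran from 0.42 (its second probe) to 1.06 (its brightest probe), and passed 2-fold with the brightest probe alone. Lowess centring moved the median of all differences by -0.15 and centring the probe classes apart by -0.16. Of the 37 immediate early genes, 6 were higher and 16 lower, with 3 higher after lowess centring, and with 1 higher and 7 lower at 4-fold. Over all genes 2159 were higher and 2209 lower, with 734 and 1010 at 4-fold. After lowess centring they were 1852 and 2444. The SD between probes stayed within 1.5 times under the other floors. No paired analysis was possible because each group has 1 sample and the replicate number 1 is the only one shared.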

Other observations

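Heat shock and stress genes, which often respond beside immediate early genes, were also divided. Of 14 measured of 17 listed, 6 were lower by at least 2-fold in the stem cells, 2 were higher and 6 were within 2-fold, with a median log2 difference of -0.66. Of the 9766 genes above the floor in 1 or both samples 22.6% were lower and 22.1% higher. The median over all 11484 genes was 0.07. The lower ones included Ddit3, which encodes the stress factor CHOP, 9.96-fold lower (4571 and 459), Gadd45a 8.82-fold lower (3277 and 372), Gadd45g 7.19-fold lower (5544 and 771) and Hmox1, the heme oxygenase gene, 3.63-fold lower (6653 and 1831). The chaperone gene Hsph1 was 3.55-fold higher (1671 and 5927). Hsp90aa1 went from 31088 to 65494, the highest value of its sample, so that it was at least 2.11-fold higher. It no longer reached 2-fold after lowess centring or after centring the probe classes apart. Dnaja1, a co-chaperone gene, was at 1726 and 2774 on the mean of 2 probes that disagreed. One went from 548 to 1924, the other from 5430 to 3999.

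By the distance between the pairs of log2 values over the 2 samples, the genes nearest to Egr1 were Ccn5 (14678 and 240, distance 0.40), Rhoj (18215 and 255, 0.40) and Cdk5r1 (24534 and 206, 0.49). Those nearest to Zfp36 were Nexn (0.07), Fut10 (0.09) and Adh7 (0.09), and those nearest to Ier2 were Fam222b (0.03), Rpusd1 (0.03) and Cnpy2 (0.03). Egr1 thus lay in a sparser region, with its nearest gene farther off. With 2 samples such likeness is a description only.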
